A study of Gallus gallus with 8 samples.

Results

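The mitochondrial carrier family SLC25 was examined in the liver of broiler chickens (Gallus gallus) raised at a high or a low stocking density. Its members were taken as the rows of the authors' deposited table whose symbol is SLC25A followed by a number and whose group mean is above 0, which gave 36 of 23613 genes. A list of 51 carriers was sorted into substrate classes, and 36 of them had a row under their symbol. Statements on the family and its classes cover only these 36. The high density group (treatment D) was stocked towards 39.1 kg/m2 at the end (8 lb/ft2), and the low density group (treatment A) towards 24.4 kg/m2 (5 lb/ft2). All birds are labelled male, and livers were taken on day 46 in both groups. Each group had 4 libraries, and each library pooled equal amounts of RNA from 4 birds of its treatment, so a group stands for 16 birds. The deposited table gives 1 comparison without values per library, so the spread among the pools of a group is unknown and each value below is that of a group. In whole liver RNA, fewer cells of a type and less RNA per cell cannot be told apart.

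Mitochondrial carriers are membrane proteins that pass metabolites, nucleotides and cofactors across the inner mitochondrial membrane. They exchange ADP for ATP, bring in phosphate, and move citrate out of the matrix, where it feeds the synthesis of fatty acids in the cytosol. In birds the liver is the main site of that synthesis, and it also forms urate, so the carriers of citrate, amino acids and phosphate stand at the crossing of its main pathways. The roles given below are those known from mammals, chiefly human and mouse.

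None of the 36 carrier genes passed the comparison of the densities in the authors' deposited table at an adjusted p of 0.05, a threshold that 55 of 20170 genes with a value passed (0.273%). The count of members with an unadjusted p under 0.05 was 2, against 1126 of all genes (5.58%), so the family's share of 5.56% lay at the background. Those members were SLC25A4, an ADP/ATP carrier, and SLC25A33, a pyrimidine nucleotide carrier, and both had negative log2 fold changes (3.12% of all genes were lower with such a p). At an adjusted p of 0.1 (0.387% of all genes) and after the Bonferroni adjustment (0.0793%) the count of members was also 0. The smallest adjusted p in the family was 0.841 per the authors' deposited table. The median log2 fold change of the 36 members was -0.03, beside 0.001 for all genes with a value. There were 15 members with a positive and 21 with a negative log2 fold change (58.3% lower), where 49.7% of all genes were lower. Among the 23 members with a mean of at least 5, 17 were lower (73.9%), against 52.8% of all 6379 genes at such means. The log2 fold change of 20 members was under 0.1 in size.

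The deposited table gives the mean of the higher group, from which the other mean was worked out with the fold change. The sign of the fold change was taken to show which group was higher. Each worked-out mean, and each sum, share or ratio of means below, holds only if the fold change is the plain ratio of the means. It did not hold for CATHB1, a heterophil marker near the floor, as set out with the processing. How far it holds for the members is unknown here. In short genes at the bottom of the table the product of mean and gene span recurs at 8 values, as many as there are libraries, so the means behave as reads scaled by gene length and library depth. If the unit is RPKM, the libraries held 26151612 to 39772311 reads. This allows levels to be set against each other between genes, and the means are given below as scaled means. A log2 fold change is that of high over low density, positive where high density had the higher mean. The implied SE beside it was derived from the deposited p-value as if from a Wald test, so what spread it covers rests on a method that is unknown here. On that scale, the members summed to 1334 at high density and 1401 at low density. The 5 most abundant members, SLC25A1, SLC25A6, SLC25A3, SLC25A5 and SLC25A20, made up 72.8% of that sum at high density and 72.5% at low density. The deposited scaled means ran between 410 for SLC25A1 and 0.0312 for SLC25A40. Hepatocytes, the main cells of liver, were checked by 14 listed markers. Of these 13 had a value, which needs only a group mean above 0. Albumin, ALB, had the highest scaled mean of the table (34746 at high density and 36025 at low density).

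**Figure D1:**
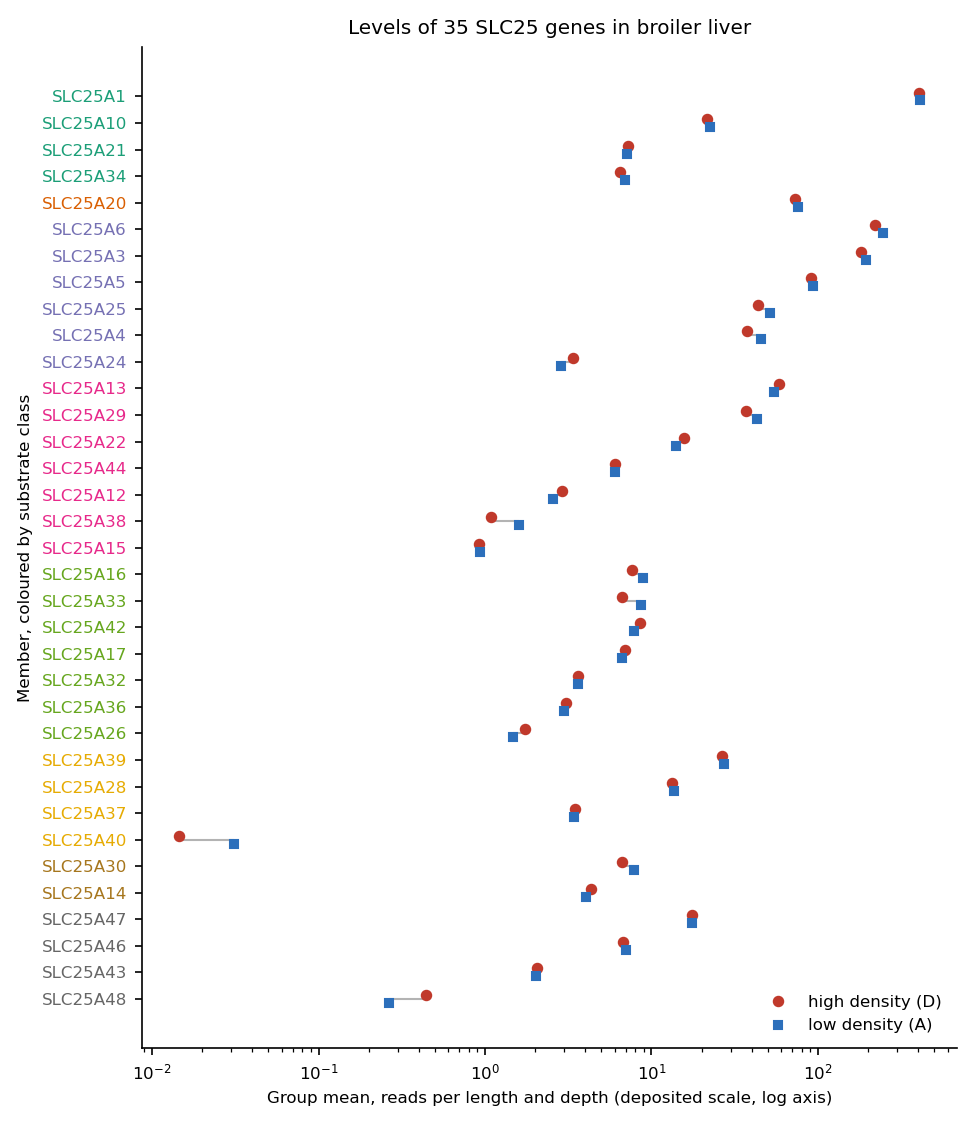
Scaled group means of 35 members on a log axis, with high density as circles and low density as squares. Genes are grouped by substrate class and ordered by level within each, from SLC25A1 at 410 to SLC25A40 at 0.0312. The lower mean of each gene was worked out from the fold change, and for 31 of the 35 the log2 fold change is under 0.3 in size.

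The 4 members placed in the class of citrate and related acids all had log2 fold changes within 0.1 of 0, and none had an unadjusted p under 0.05. SLC25A1, the citrate carrier (ENSGALG00000047077, GRCg6a chromosome 15, 320872 to 329664, minus strand), was the most abundant member and ranked 101 among all genes with a value. Its scaled mean was 405 at high density and 410 at low density, a log2 fold change of -0.02 (implied SE 0.13, p = 0.893 and adjusted p = 1.0 per the authors' deposited table). The implied 95% interval of the ratio, high over low density, was 0.824 to 1.18. The dicarboxylate carrier SLC25A10 had scaled means of 21.6 at high density and 22.5 at low density (log2 fold change -0.06 per the authors' deposited table). SLC25A21, which carries oxodicarboxylates of lysine breakdown, had a log2 fold change of 0.005, and SLC25A34, whose substrate is not settled, one of -0.08 per the authors' deposited table. SLC25A34 overlaps PLEKHM2 on its strand, and how the authors counted reads shared by overlapping genes is unknown here.

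The carnitine and acylcarnitine carrier SLC25A20, which brings long fatty acids to oxidation in the matrix, had scaled means of 73.2 at high density and 75.8 at low density. Its log2 fold change was -0.05 (implied SE 0.13, p = 0.698, adjusted p = 1.0 per the authors' deposited table), on chromosome 12, 12100869 to 12111865. The enzymes on either side of it in the carnitine shuttle had values of -0.37 for CPT1A (p = 0.0259, adjusted p = 0.894) and 0.07 for CPT2 (p = 0.594) per the authors' deposited table. Neither passed the test over all genes.

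Of the 6 carriers of ADP, ATP and phosphate, 5 had negative values, and the class summed to 577 at high density and 631 at low density. SLC25A6, an ADP/ATP carrier (chromosome 1, 130453389 to 130458629), had a scaled mean of 219 at high density and 244 at low density (log2 fold change -0.16, implied SE 0.13, p = 0.223, adjusted p = 1.0 per the authors' deposited table). SLC25A5 (chromosome 4, 16561047 to 16563108, minus strand) had scaled means of 91.4 at high density and 93.3 at low density, and a log2 fold change of -0.03 (implied SE 0.14, p = 0.832, adjusted p = 1.0 per the authors' deposited table). SLC25A4 (ENSGALG00000010614, chromosome 4, 39355762 to 39358582, minus strand) had scaled means of 37.7 at high density and 45.6 at low density. Its log2 fold change of -0.28 (1.21-fold lower, implied SE 0.12) had the smallest p of the family, 0.022, and did not pass the adjustment over all genes (adjusted p = 0.841 per the authors' deposited table). SLC25A4 is the form of heart and skeletal muscle in mammals, and here it was the least abundant of these 3 genes. At high density SLC25A6 made up 62.9% of their summed means, SLC25A5 26.3% and SLC25A4 10.8%. At low density the shares were 63.8% for SLC25A6, 24.3% for SLC25A5 and 11.9% for SLC25A4. The ADP/ATP carriers are close paralogs, and the RefSeq gene table lists SLC25A5 as a synonym of SLC25A6, so reads shared between them could be split by the authors' counting in a way not known here.

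The phosphate carrier SLC25A3, which supplies phosphate for ATP synthesis (chromosome 1, 46695138 to 46703045), had scaled means of 182 at high density and 193 at low density. Its log2 fold change was -0.08 (implied SE 0.13, p = 0.53, adjusted p = 1.0 per the authors' deposited table). The calcium-regulated ATP-magnesium and phosphate carriers had opposite signs. SLC25A25 (chromosome 17, 5166891 to 5181671, minus strand) had scaled means of 43.6 at high density and 51.7 at low density (log2 fold change -0.25, implied SE 0.18, p = 0.165, adjusted p = 1.0 per the authors' deposited table). SLC25A24 (chromosome 8, 1583595 to 1606906, minus strand) had 3.39 at high density and 2.85 at low density (log2 fold change 0.25, implied SE 0.16, p = 0.109, adjusted p = 1.0 per the authors' deposited table), the largest positive value among members with a mean of at least 1. The ratio of SLC25A25 to SLC25A24 was 12.9 at high density and 18.1 at low density, a difference that was not tested because the table gives no values per library.

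**Figure D2:**
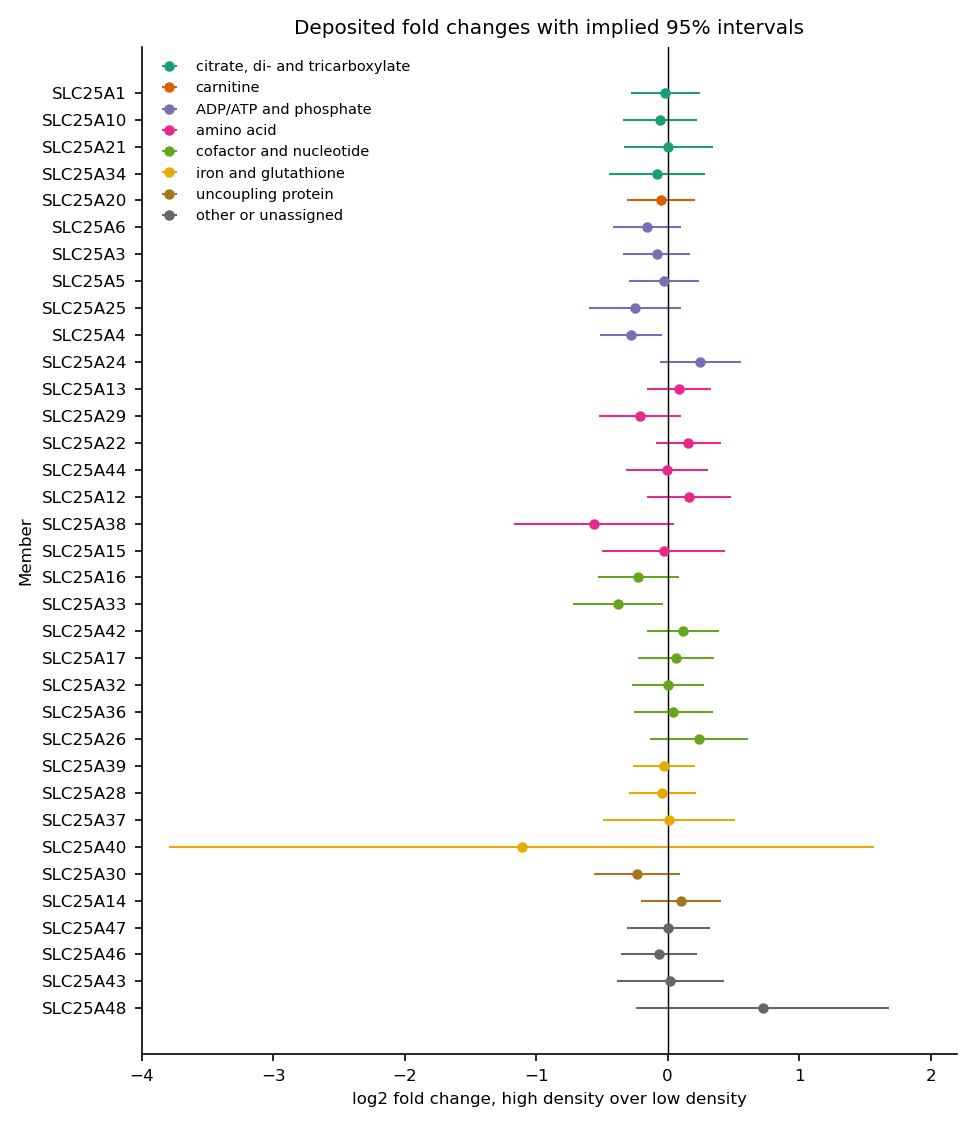
Deposited log2 fold changes, high over low density, of 35 members as points with implied 95% intervals as bars, coloured by substrate class. The intervals of 33 members hold 0, those of SLC25A4 and SLC25A33 lie just below it, and SLC25A40, with the lowest mean, has the widest.

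The 7 amino acid carriers were split, 3 with positive and 4 with negative values, and the class summed to 122 at high density and 123 at low density. SLC25A13, the aspartate and glutamate carrier of liver, works in the malate-aspartate shuttle. It had scaled means of 58.1 at high density and 54.7 at low density (log2 fold change 0.09, implied SE 0.12, p = 0.479, adjusted p = 1.0 per the authors' deposited table; chromosome 2, 24127768 to 24221691, minus strand). Its paralog SLC25A12, the form of muscle and brain in mammals, had scaled means of 2.89 at high density and 2.58 at low density (log2 fold change 0.16, implied SE 0.16, p = 0.316, adjusted p = 1.0 per the authors' deposited table; chromosome 7, 17886474 to 17959918). SLC25A13 therefore exceeded SLC25A12 by 20.1 times at high density and 21.2 times at low density. The glutamate carrier SLC25A22 had 15.7 at high density and 14.0 at low density, a log2 fold change of 0.16 (implied SE 0.12, p = 0.208 per the authors' deposited table). SLC25A29, a carrier of basic amino acids, had 37.0 at high density and 42.8 at low density (log2 fold change -0.21, implied SE 0.16, p = 0.191 per the authors' deposited table).

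The ornithine carrier SLC25A15, which serves the urea cycle of mammals, had scaled means of only 0.92 at high density and 0.939 at low density (log2 fold change -0.03 per the authors' deposited table). CPS1, the first enzyme of that cycle in mammals, stood at 0.815 at high density and 0.789 at low density, in a class of animals that excretes urate. SLC25A44, a carrier of branched-chain amino acids, had a log2 fold change of -0.003 per the authors' deposited table. It lies within a model on the other strand, ENSGALG00000051101, which fell by 0.88 on the log2 scale (adjusted p = 0.000138 per the authors' deposited table), and whether the counting used strand is unknown here.

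SLC25A38 brings glycine into the matrix for the first step of haem synthesis (chromosome 2, 44310282 to 44314964, minus strand). Its scaled mean was 1.08 at high density and 1.59 at low density. The log2 fold change of -0.56 was the most negative among members with a mean of at least 1, but with a wide implied SE of 0.31 it did not pass (p = 0.0705, adjusted p = 1.0 per the authors' deposited table). The mitoferrins, which carry iron to the same pathway, had values close to 0. SLC25A37, the erythroid mitoferrin, had 3.48 at high density and 3.45 at low density (log2 fold change 0.01), and SLC25A28, its widely expressed paralog, 13.2 at high density and 13.6 at low density (-0.04 per the authors' deposited table). The implied 95% interval of SLC25A37 ran between -0.49 and 0.51 on the log2 scale. Erythroid markers were higher at high density in 8 of the 9 genes with a value, where 10152 of all 20170 genes were higher. Among them were HBBA (log2 fold change 0.64, p = 0.0277), SLC4A1 (0.67, p = 0.00163) and ALAS2 (0.11, p = 0.469), while HBZ had -2.21 (p = 0.0144) per the authors' deposited table. These 9 markers summed to 434 at high density and 308 at low density, and 0 were called. Most of both sums came from the globins HBBA and HBA1. HBBA had 208 at high density and 134 at low density, and HBA1 had 187 and 138 (p = 0.133 per the authors' deposited table). Their part in the values of SLC25A37 and SLC25A38 was not tested. The glutathione carrier SLC25A39 had 26.7 at high density and 27.2 at low density (-0.03), and its paralog SLC25A40 was barely detected, at 0.0145 at high density and 0.0312 at low density (log2 fold change -1.11, implied SE 1.37, p = 0.416 per the authors' deposited table).

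Carriers of cofactors and nucleotides numbered 8, of which 5 had positive and 3 negative values. SLC25A33, which imports pyrimidine nucleotides for the synthesis of mitochondrial DNA and RNA (ENSGALG00000002519, chromosome 21, 3403876 to 3423372), had scaled means of 6.68 at high density and 8.68 at low density. Its log2 fold change of -0.38 (1.30-fold lower, implied SE 0.17) had an unadjusted p of 0.029 and an adjusted p of 0.917 per the authors' deposited table. The gene overlaps ENSGALG00000002527 on its strand, and that model had a log2 fold change of -0.23 (p = 0.134 per the authors' deposited table). Its paralog SLC25A36 had 3.07 at high density and 2.99 at low density, a log2 fold change of 0.04 (implied SE 0.15 per the authors' deposited table). SLC25A26, which imports the methyl donor S-adenosylmethionine (chromosome 12, 14762054 to 14852340), had 1.74 at high density and 1.48 at low density (log2 fold change 0.24, implied SE 0.19, p = 0.205, adjusted p = 1.0 per the authors' deposited table). The coenzyme A carrier SLC25A42 (0.11) and SLC25A16 (-0.22), which has been linked to the same substrate, had opposite signs per the authors' deposited table. The peroxisomal carrier SLC25A17 had 0.06 and the folate carrier SLC25A32 0.004 per the authors' deposited table.

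Among the uncoupling protein relatives, SLC25A30 had a log2 fold change of -0.23 (p = 0.159) and SLC25A14 one of 0.10 (p = 0.523) per the authors' deposited table, and each overlaps another model on its strand. UCP3, a family member that carries no SLC25 symbol in the table, is the avian uncoupling protein known mainly from muscle. Its scaled mean was 0.056 at high density and 0.226 at low density (log2 fold change -2.02, implied SE 0.71, p = 0.00442, adjusted p = 0.464 per the authors' deposited table), which did not pass at a level far below that of most members. The outer membrane relative MTCH1 had -0.01 per the authors' deposited table.

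Of the carriers with other or unsettled substrates, SLC25A47, which is enriched in liver in mammals, had 17.5 at high density and 17.4 at low density (0.005 per the authors' deposited table). SLC25A43, which lies 984 bases from SLC25A5 on the same strand with no other row between them, had 0.02 per the authors' deposited table. SLC25A48, linked to choline transport in mammals, had 0.44 at high density and 0.267 at low density (log2 fold change 0.72, implied SE 0.49, p = 0.14 per the authors' deposited table). It was the largest positive value of the family, at a mean below 1. SLC25A46, which acts in the shaping of mitochondrial membranes, is the 1 member on the Z chromosome and had -0.07 per the authors' deposited table. The 481 Z genes with a mean of at least 1 had a median of -0.02. The 8 such genes of the W chromosome, which males lack, were all higher at high density (median 0.87), and 0 were called. Of all 10867 genes at such means 5198 were higher. Among the 92 W genes with a value, 70 were higher and 22 lower, with 0 called. A difference in sex between the pools and the density cannot be told apart here.

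Implied errors were widest among the members of lowest level. The median implied SE was 0.13 for the 3 members with a mean of at least 100, 0.13 for the 11 between 10 and 100, 0.16 for the 19 between 1 and 10, and 0.49 for the 3 below 1. Over all 36 members the median was 0.16. Besides the overlaps named above, SLC25A3 overlaps a small RNA model on its strand, and SLC25A12, SLC25A16, SLC25A20, SLC25A26 and SLC25A32 each overlap a model on the other strand, so their counts may hold reads of a neighbour. For the 14 members with a mean of at least 10, every implied 95% interval of the ratio, high over low density, lay between 0.662 and 1.32.

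Members that span a short stretch of genome had lower fold changes than members with a long span, which is given here without a test. Genes with a mean of at least 1 were divided at the quartiles of span among these genes, 5505, 12878 and 30691 bases. All 8 members in the class of shortest span were lower at high density (median -0.07), namely SLC25A5, SLC25A34, SLC25A4, SLC25A28, SLC25A39, SLC25A38, SLC25A6 and SLC25A10, where 60.4% of 2717 genes of that class were lower (median -0.05). In the next class 7 of 10 members were lower, where 49.4% of all genes of that class were lower. In the third class 4 of 10 members were lower, near the 46.0% of all genes there. All 5 in the class of longest span, SLC25A22, SLC25A12, SLC25A26, SLC25A13 and SLC25A21, were higher (median 0.16), where 52.9% of all genes of that class were lower (median -0.01). Across the 33 members Spearman's rho between span and log2 fold change was 0.53, and across all 10867 genes it was 0.07, given as a description since genes are not independent replicates. Of the members in the shortest and longest classes, only SLC25A4 had an unadjusted p under 0.05. Span is not transcript length, and the part of RNA quality or library preparation in this order was not tested.

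**Figure D3:**
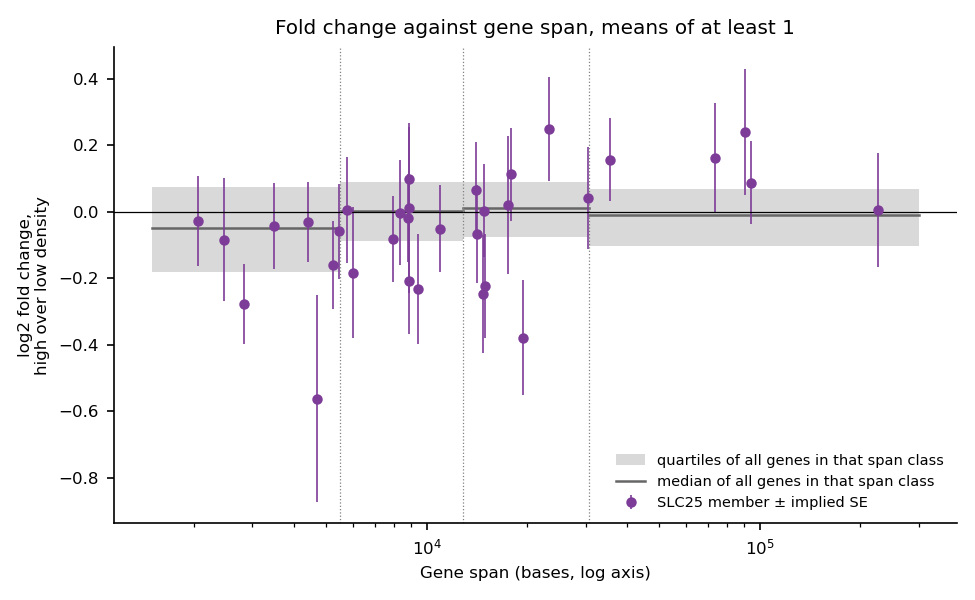
Deposited log2 fold change against gene span (log axis) for the 33 members with a mean of at least 1, with implied standard errors as bars. Grey bands and lines are the quartiles and medians of all genes in 4 classes of span, and the 8 shortest members lie below 0 and the 5 longest above it.

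Other genes of mitochondrial transport and metabolism were set beside the carriers. For the counts of these lists, 49.7% of all genes with a value were lower, and 52.2% of those with a mean of at least 1. Among 12 pyruvate, calcium and porin channel genes, 10 were lower and 2 higher at high density (median -0.06), with 0 called. MPC1, which forms the mitochondrial pyruvate carrier with MPC2, had scaled means of 67.0 at high density and 107 at low density. Its log2 fold change of -0.67 (implied SE 0.18, p = 0.000137) missed the threshold narrowly, with an adjusted p of 0.0521 per the authors' deposited table. MPC2 had 211 at high density and 226 at low density, a log2 fold change of -0.10 (p = 0.455 per the authors' deposited table).

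Of 17 genes of the import machinery that delivers carriers and other proteins, 13 were lower and 4 higher (median -0.06), and 0 were called. TIMM10 (-0.69, p = 0.0122), TIMM13 (-0.53, p = 0.0165) and TOMM6 (-0.52, p = 0.00483) had unadjusted p-values under 0.05 per the authors' deposited table. They have the shortest spans of the list, 559, 740 and 1023 bases. Of all genes in the class of shortest span at means of at least 1, 60.4% were lower. The part of span in these values was not tested. TIMM10 and TIMM13 are small chaperones that escort carriers through the space between the membranes, yet TIMM9, the partner of TIMM10, had 0.11 and TIMM22, the channel that inserts carriers, -0.03 per the authors' deposited table. TCA cycle genes and their neighbours were lower in 16 and higher in 9 cases (median -0.02), and IDH3A (0.26, p = 0.0269 per the authors' deposited table) had the 1 unadjusted p under 0.05. ACLY, which splits the citrate that SLC25A1 exports, had 218 at high density and 212 at low density (log2 fold change 0.04 per the authors' deposited table). The carnitine shuttle and beta oxidation list held 9 lower and 5 higher genes (median -0.06). Mitochondrial iron and haem genes were split, 6 and 6 (median 0.01), with 0 at an unadjusted p under 0.05. Of 9 regulators of mitochondrial biogenesis 5 were lower and 4 higher (median -0.06), and PPARGC1A, a coactivator of mitochondrial genes, had -0.77 (p = 0.00337, adjusted p = 0.399 per the authors' deposited table). No gene of these 7 lists was called at an adjusted p of 0.05 over all rows. Of their 91 genes, MPC1 alone passed under other settings, as lower at high density. It passed a threshold of 0.1. Recomputed from the authors' deposited p-values over the 20170 genes with a value, its Benjamini-Hochberg adjusted value was 0.0445, where 63 of these genes were called. Limited to the 10867 genes at means of 1 or more, its value was 0.0303, where 58 genes were called. MPC1 did not pass the Bonferroni adjustment.

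**Figure D4:**
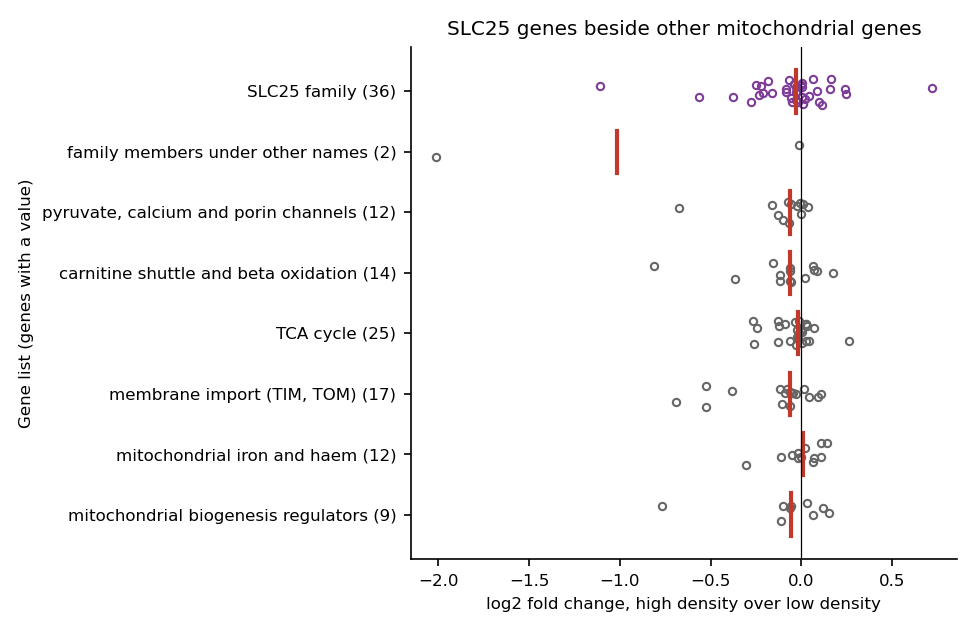
Deposited log2 fold changes of the 36 SLC25 members and of 7 lists of other mitochondrial genes, 1 circle per gene with a value, with list medians as vertical lines. Medians lie between -0.06 and 0.01 except for the list of family members under other names, which holds UCP3 at -2.02 and MTCH1 at -0.01.

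Other cell types of the organ were checked by their markers too. The T and NK cell list had 12 genes with a value, and all were lower at high density, where 49.7% of all genes were lower. Their summed scaled means were 52.9 at high density and 71.7 at low density. The 1 called was GNLY, beside 0.273% called of all genes. It had the highest mean of the list, 21.5 at high density and 32.1 at low density (log2 fold change -0.58, adjusted p = 0.0396 per the authors' deposited table). Of 11 heterophil markers, which summed to 64.6 at high density and 40.1 at low density, 10 were higher and 0 were called. Cholangiocyte markers were lower in 7 of 9 cases, stellate and fibroblast markers in 10 of 12, and Kupffer cell markers in all 7, with 0 called in each. Their median log2 fold changes were -0.27, -0.21 and -0.08 in that order, beside -0.45 for the T and NK list. An unadjusted p under 0.05 was held by 6 of 11 heterophil, 4 of 12 T and NK and 3 of 9 erythroid markers. So did 3 of 9 cholangiocyte and 2 of 12 stellate and fibroblast markers, and 0 Kupffer cell or hepatocyte markers, beside 5.58% of all genes. Of the 6 heterophil markers 5 were higher and 1 lower, namely LYZ (log2 fold change -1.43, p = 0.0106 per the authors' deposited table). The 13 hepatocyte markers were higher in 8 and lower in 5 cases, with a median of 0.03. The part of these cell types in the carrier values was not tested.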

How the data were processed

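RNA sequencing of 8 liver libraries, 4 per stocking density, was analysed through the authors' deposited table of D against A. For each of 23613 genes, per the file headers, the deposited columns are the higher of both group means (another scale, not named), a log2 fold change, a fold change with a sign (a score here, since it takes negative values), a p-value and adjusted p-values. Coordinates are on GRCg6a, the build in the submitters' processing notes. The aligner, counting, normalization and statistical method were not given in the sources used here.

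Since the table holds 0 columns of values per library, the planned count and normalized-value tests did not apply and the deposited p-values were used. In 3443 rows every value is 0, which left 20170 genes with a value. A Benjamini-Hochberg adjustment recomputed over all 23613 rows, with the rows of zeros taken as unchanged, differed from the deposited one by at most 2.4e-05.

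The mean of the lower group was computed from the deposited mean and log2 fold change. That mean is exact only if the fold change is the plain ratio of the group means. For CATHB1 the computed mean at low density was 0.00322 over a span of 1129 bases. The product lies below 6.29, the smallest of the recurring products described next, so it is less than 1 read would give. The implied standard error divides the size of the log2 fold change by the normal quantile that its p-value stands for. It assumes a Wald test, and the implied 95% interval follows from it.

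The deposited mean multiplied by gene span was examined in genes spanning under 3000 bases. Among the 206 genes with a product below 2 times the smallest, 183 lay on 8 recurring values (equal to 5 decimals), as single reads in 8 libraries would give on a scale of reads per length and depth. If the unit is RPKM, these steps stand for 26151612 to 39772311 reads per library.

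Members were the rows whose symbol starts with SLC25A and a digit and whose mean is above 0. Full values were given for members called or with an unadjusted p under 0.05, for the 8 highest means and for the 3 largest fold changes in each direction at a mean of at least 1. Members, substrate classes and gene lists were chosen with earlier results of these data known. For 1 member, which is kept in the counts and medians, values are not reported here. The alternatives were other call thresholds, other sets of genes in the adjustment, minimum means of 1 and 5, recentring and leaving out members that overlap a gene on their strand. Python 3.11.15, pandas 2.3.3, scipy 1.17.1 and matplotlib 3.10.9 were used, and the functions were tested on simulated data.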

Additional observations from a re-analysis of the deposited data

How the results depend on the processing

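No paired analysis was possible because the deposited table carries no values per library, and for the same reason no library could be left out. The count of called members was 0 under an adjusted p of 0.1 and under the Bonferroni adjustment. It was also 0 with an adjustment over the 20170 genes with a value, of which 63 were called. With the adjustment limited to the 10867 genes at means of 1 or more, 58 genes were called. None of these was a member, and the smallest member value was 0.576. The family's median log2 fold change was -0.03 with all members and with those at a mean of at least 1, and -0.05 at a mean of at least 5. It was -0.02 after recentring and without the members that overlap a gene on their strand. The 6 members that overlap a model on the other strand were kept in that setting. The share of members lower was 21 of 36 (58.3%), against 19 of 33 (57.6%) at a mean of at least 1 and 20 of 36 (55.6%) after recentring. It was 17 of 31 (54.8%) without members overlapping a gene on their strand, and 17 of 23 (73.9%) at a mean of at least 5. That last setting gave the lowest median and the highest share. Its median differed from that of all members by less than 0.05, the shift set to count as moved. The count of members with an unadjusted p under 0.05 also changed. It was 1 in place of 2 without the 5 members that overlap a gene on their strand, since SLC25A33 is among these. For MPC1, looked at in the same way after its values were seen, the call depended on the genes adjusted over. Depth per library and transcript lengths limit what can be said of SLC25A15, SLC25A40 and SLC25A48, whose means are below 1. The planned comparison of protein and promoter sequences was not run.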
